A study of Mus musculus with 6 samples.

Results

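NRF2, the transcription factor encoded by Nfe2l2, its inhibitor Keap1 and 8 genes of the glutathione and thioredoxin defence were followed in the mouse mammary carcinoma line 4T1 after corticosterone. The 10 genes (Nfe2l2, Keap1, Nqo1, Gclc, Gclm, Txnrd1, Srxn1, Gsr, Gpx4 and G6pdx) were chosen by symbol, with earlier results of these data known. Each was found once among the 28154 genes of the deposited table. All 10 passed the filter on low counts that left 17283 tested genes. The series holds 6 RNA sequencing libraries of 4T1 cells, a line derived from 1 mammary tumour that grows and spreads in syngeneic mice. Of these, 3 came from cells labelled control and 3 from cells labelled as treated with corticosterone, the main glucocorticoid of rodents. Neither the treatment of the controls nor the dose and duration of corticosterone is given in the sources used here. Nothing in the labels ties replicates to separate cultures, and p-values then cover only the spread among these libraries, which may be technical.

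In unstressed cells KEAP1 holds NRF2 in the cytoplasm and hands it to the CUL3 ubiquitin ligase for destruction. Oxidants and electrophiles modify cysteines of KEAP1, NRF2 escapes, pairs with a small MAF protein in the nucleus and binds antioxidant response elements near its target genes. The targets make glutathione, recycle glutathione and thioredoxin with NADPH, and detoxify quinones and peroxides. In many carcinomas this programme is active and protects the cells from oxidative damage and from ferroptosis, a death driven by lipid peroxides. Because NRF2 is controlled mainly as a protein, its transcript level does not report its activity.

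The letters of the element's core, TGACNNNGC, were searched on both strands of RefSeq promoter windows (GRCm38.p6), which run from 250 bases before to 50 bases after a transcript start. Of the 10 genes 8 had at least 1 window, 13 in all, and 5 of these 13 windows (38.5%) held the core, against 12.4% of all 32851 windows. Counted by gene, 5 of the 8 held it in a window, against 14% of the 27025 symbols with a window. Gclc and Gsr had no window, and Keap1, Nqo1 and Gpx4 had windows without the core. Because the members were chosen around NRF2, and had more windows per gene than all symbols, these shares do not test for an excess of the core. The sites are shown because they are where NRF2 could meet these genes. Each is read on the strand that spells the core, which is in capitals.
Txnrd1: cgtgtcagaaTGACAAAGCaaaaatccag
Gclm: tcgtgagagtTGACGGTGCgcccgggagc
Nfe2l2: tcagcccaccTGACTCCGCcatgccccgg
G6pdx: gcgtgtgcttTGACTGAGCtgacccgcct
Srxn1: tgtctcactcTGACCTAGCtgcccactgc
The printed stretches lie at chr10:82859104-82859132 (Txnrd1), chr3:122245413-122245441 (Gclm), chr2:75704885-75704913 (Nfe2l2), chrX:74428919-74428947 (G6pdx) and chr2:152105542-152105570 (Srxn1). In gene orientation the core began 92 bases before a RefSeq start of Txnrd1, 134 before that of Gclm, 240 before that of Nfe2l2 and 57 before that of G6pdx. In Srxn1 it began at base 29 of the transcript. The starts used for Txnrd1 and G6pdx are internal ones: their printed stretches lie 25153 and 247 bases inside the deposited gene coordinates, counted from the gene's 5′ end. A match is a description of letters and not a bound site. The letters of the full glucocorticoid response element, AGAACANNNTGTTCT, were in none of the members' windows and in 0.00913% of all windows.

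Longer stretches are shown for Txnrd1 and Gclm, the 2 members with a core before a RefSeq start and an estimated log2 fold change above 0. They were picked by the sign of estimates that did not pass with all libraries (0.18 and 0.14). Nfe2l2 and G6pdx also had a core before a start, with estimates below 0 (-0.033 and -0.14). The choice therefore ties no change to the element. That of Gclm lies before the gene, and that of Txnrd1 lies inside it, before an internal start, and begins 25005 bases from the gene's 5′ end. Bases that GENCODE places in an exon of the gene are left out. They are written on the gene's own strand, so the core in capitals appears as its reverse complement. That of Txnrd1 is chr10:82858956-82859178 and that of Gclm is chr3:122245307-122245556, both on the plus strand.
Txnrd1: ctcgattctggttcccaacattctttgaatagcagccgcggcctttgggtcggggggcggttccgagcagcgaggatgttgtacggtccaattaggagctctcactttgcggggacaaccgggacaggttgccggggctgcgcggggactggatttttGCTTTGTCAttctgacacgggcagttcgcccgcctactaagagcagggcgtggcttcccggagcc
Gclm: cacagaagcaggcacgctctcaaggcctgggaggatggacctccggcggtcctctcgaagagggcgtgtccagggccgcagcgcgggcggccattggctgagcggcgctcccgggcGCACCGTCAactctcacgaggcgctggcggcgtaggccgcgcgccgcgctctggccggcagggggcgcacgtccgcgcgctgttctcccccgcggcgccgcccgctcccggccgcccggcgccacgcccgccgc

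The libraries held 62.2 to 66.2 M counts, and the members 443 (Nqo1) to 22347 (Gpx4) counts per library. Targets of the glucocorticoid receptor rose, with log2 fold changes of 1.75 for Per1, 1.55 for Tsc22d3 and 0.77 for Fkbp5 (edgeR adjusted p = 7.85e-05, 7.85e-05 and 0.00078). The epithelial markers Krt18 and Krt8 were at 1227 and 949 CPM in controls (counts scaled to library depth with TMM, the trimmed mean of M values) and Epcam at 250.2 CPM, while the leukocyte marker Ptprc was at 4.15 CPM. The 5 leukocyte markers summed to 18.1 to 21.7 CPM in controls and 19.3 to 23.0 CPM with corticosterone, with Cd3e and Ly6g each at 0 counts in 3 libraries. The 6 fibroblast markers summed to 134.9 to 146.9 CPM in controls and 138.9 to 145 CPM with corticosterone. For the 5 endothelial markers the sums were 2.41 to 3.20 CPM and 1.89 to 2.35 CPM. Corticosterone replicate 2 differed from the other treated libraries in having the lowest limma-voom library weight (0.228, against 0.725 to 3.27 in the others). That weight came from a fit chosen after seeing the data. On the first principal component of log2 CPM it was the treated library nearest the controls. Its value was 9.17, against 29.6 and 38.5 in the other treated libraries and -33.8 to -21.5 in controls. Results are given with and without it, and leaving out such a library can by itself enlarge group differences.

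With all 6 libraries at equal weight, none of the 10 transcripts passed in edgeR, in DESeq2 or in limma on log2(FPKM + 1), where FPKM is fragments per kilobase of transcript at equal depth, and 2 (Keap1 and Nqo1) had an unadjusted p under 0.05 in edgeR. Across all tested genes 2.82% passed in edgeR, 1.35% higher and 1.46% lower, 7.4% passed in DESeq2, and 17% had an unadjusted p under 0.05 in edgeR. In limma on log2(FPKM + 1), 504 of 11836 tested genes passed. Adjusted p-values in the text are from edgeR's quasi-likelihood test with Benjamini-Hochberg adjustment over all tested genes. The members' log2 fold changes ran from -0.42 (Nqo1) to 0.23 (Gclc), 5 above and 5 below 0, with a median of -0.015 against 9.6e-05 over all tested genes. Their median distance from 0 was 0.16, and that of all tested genes was 0.15. Without corticosterone replicate 2 the picture changed: 6 members passed, 2 higher (Gclc and Txnrd1) and 4 lower (Keap1, Nqo1, Gpx4 and G6pdx), in a fit in which 20.5% of all tested genes passed, 10.5% higher and 10% lower. The same 6 passed in limma-voom with library weights, in which 27.3% of all tested genes did. That fit kept all 6 libraries but gave corticosterone replicate 2 the lowest weight (0.228). It is therefore not independent of the fit without that library. Leaving out corticosterone replicate 2 keeps control replicate 3, which shared several of its readings, such as a low second principal component (-27.1 and -37.1). In that fit these readings are in a control library alone, so they cannot be told apart from treatment.

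**Figure D1:**
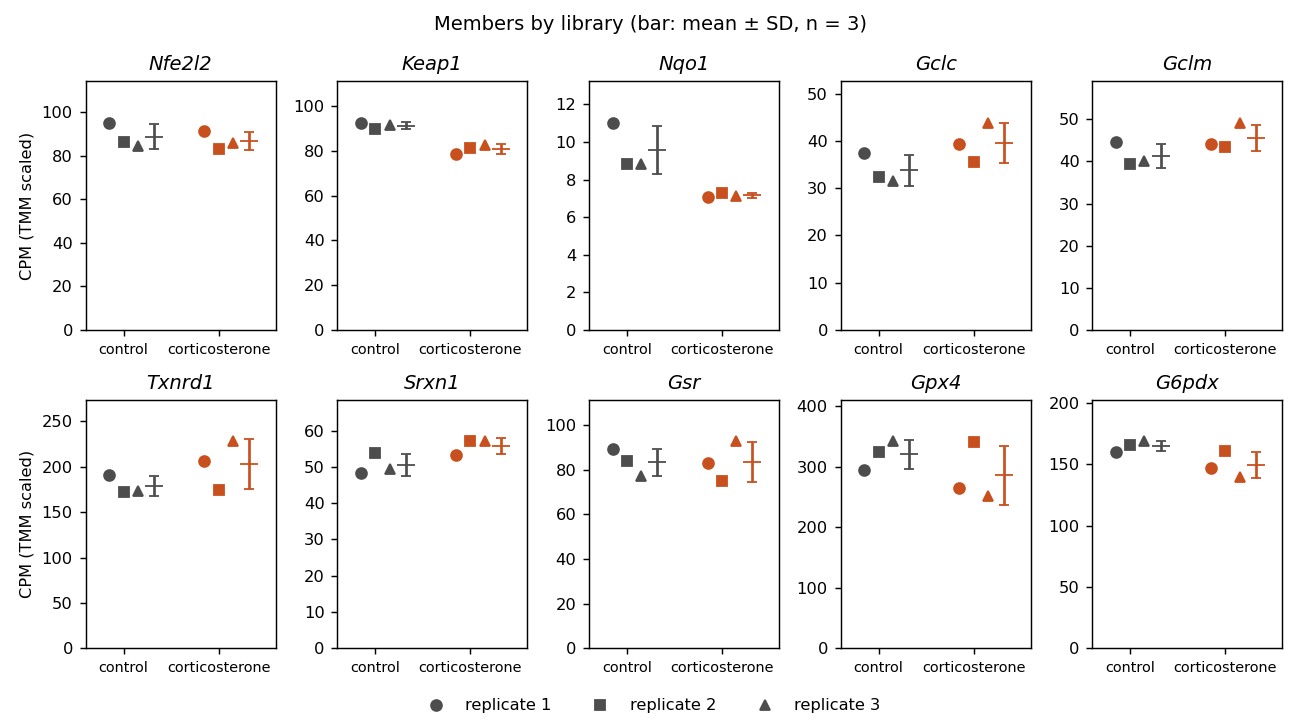
Level of each member (y axis, CPM with TMM scaling, axis from 0) in the 3 control (grey) and 3 corticosterone (orange) libraries, with marker shape for the replicate and a bar for mean ± SD (n = 3). The groups are separate for Keap1 and Nqo1, as they are for 22.2% of all tested genes. Corticosterone replicate 2 (square) lies among the controls for Gclc, Gclm, Txnrd1, Gpx4 and G6pdx.

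**Figure D2:**
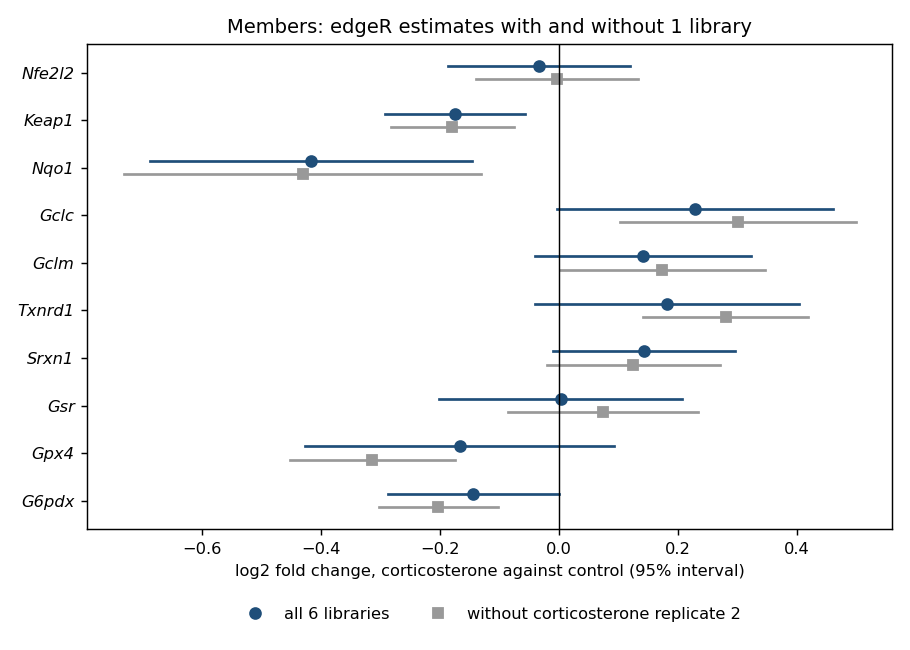
Log2 fold change of each member, corticosterone against control (x axis, with 95% intervals), from edgeR with all 6 libraries (blue circles) and without corticosterone replicate 2 (grey squares). The estimate of Gpx4 goes from -0.17 to -0.31 and that of Txnrd1 from 0.18 to 0.28, while those of Keap1 and Nqo1 stay at -0.17 to -0.18 and -0.42 to -0.43.

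Of the regulators, Nfe2l2 (ENSMUSG00000015839, chromosome 2, 75675513 to 75704641, GRCm38), which encodes NRF2 itself, was at 95.2, 86.2 and 84.4 CPM in control replicates 1, 2 and 3 and at 91.2, 82.8 and 85.8 CPM in the corticosterone replicates. The groups overlapped. Its log2 fold change was -0.033 (SE 0.067), and the 95% interval of -0.19 to 0.12 leaves room for a change of up to 1.09-fold upward or down to 0.879-fold (edgeR adjusted p = 0.843). The sign of so small an estimate was not stable, being 0.025 without control replicate 1.

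Keap1 (chromosome 9, 21229730 to 21239361), the adaptor that presents NRF2 for destruction, was at 92.8, 89.8 and 91.7 CPM in controls and at 78.6, 81.4 and 82.9 CPM with corticosterone. Each treated library was below each control library, as was the case for 11.6% of all tested genes. Its log2 fold change of -0.17 (SE 0.051, 95% interval -0.29 to -0.057) did not pass (edgeR adjusted p = 0.133, unadjusted p = 0.00889). Keap1 passed without corticosterone replicate 2 at nearly the same estimate, -0.18 (adjusted p = 0.025). An exon of Keap1 overlaps Gm16754 on the opposite strand, and, as no source used here gives the strandedness, its counts are uncertain to that extent.

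Nqo1 (chromosome 8, 107388225 to 107403206), a quinone reductase whose transcript is a widely used readout of NRF2, had the lowest level of the members and the largest estimated change. It was at 11.04, 8.81 and 8.84 CPM in controls and at 7.05, 7.30 and 7.15 CPM with corticosterone. Each treated library was below each control library, as was the case for 11.6% of all tested genes. The SD was 1.28 CPM in controls and 0.126 CPM in treated cells (n = 3). The spread of the controls came from replicate 1, without which the log2 fold change went from -0.42 (SE 0.12) to -0.30. Nqo1 did not pass (95% interval -0.69 to -0.15; edgeR adjusted p = 0.122, and 0.0496 without corticosterone replicate 2).

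The enzyme that makes the first and rate-limiting step of glutathione synthesis, glutamate-cysteine ligase, has a catalytic subunit, encoded by Gclc, and a modifier subunit, encoded by Gclm. Gclc (chromosome 9, 77754535 to 77794485) was at 37.5, 32.3 and 31.5 CPM in controls and at 39.4, 35.4 and 43.9 CPM with corticosterone, so that control replicate 1 lay above corticosterone replicate 2. Its log2 fold change was 0.23 (SE 0.10, 95% interval -0.0039 to 0.46; edgeR adjusted p = 0.301). Without corticosterone replicate 2 the estimate was 0.30 (adjusted p = 0.0404), and without corticosterone replicate 3 it was 0.15 (adjusted p = 0.63).

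Gclm (chromosome 3, 122245557 to 122270732) was at 44.6, 39.4 and 40.0 CPM in controls and at 44.1, 43.5 and 49.2 CPM with corticosterone. Control replicate 1 was again above treated libraries, here above 2 of the 3. The log2 fold change of 0.14 (SE 0.079) did not pass with all libraries or without corticosterone replicate 2 (0.17; edgeR adjusted p = 0.414 and 0.146), and was 0.086 without corticosterone replicate 3 (adjusted p = 0.761). Exons of Gclm overlap Gm17494 on the opposite strand and Gm6061 on the same strand, which makes its counts uncertain.

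Txnrd1 (chromosome 10, 82833951 to 82897712) encodes the cytosolic thioredoxin reductase, a selenoprotein that spends NADPH to keep thioredoxin reduced. It was at 191, 172 and 173 CPM in controls and at 206, 174 and 228 CPM with corticosterone. Corticosterone replicates 1 and 3 were above all controls, and replicate 2 was among them. Its log2 fold change was 0.18 (SE 0.097, 95% interval -0.040 to 0.40; edgeR adjusted p = 0.39). Leaving out corticosterone replicate 2 gave 0.28 (adjusted p = 0.0135), and leaving out corticosterone replicate 3 gave 0.091 (adjusted p = 0.773).

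Srxn1 (chromosome 2, 152105516 to 152109322) encodes sulfiredoxin, which repairs over-oxidised peroxiredoxins. It was at 48.3, 53.8 and 49.4 CPM in controls and at 53.2, 57.1 and 57.0 CPM with corticosterone, with control replicate 2 above corticosterone replicate 1. Here, as in Keap1, corticosterone replicate 2 was not the treated library nearest to the controls, and it lay nearly level with replicate 3. The log2 fold change of 0.14 (SE 0.067) did not pass, with or without corticosterone replicate 2 (edgeR adjusted p = 0.323 and 0.214), and the estimate was 0.073 in limma-voom with library weights.

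Gsr (chromosome 8, 33652523 to 33698163), glutathione reductase, which returns oxidised glutathione to its reduced form, was at 89.2, 83.7 and 77.1 CPM in controls and at 82.8, 75.0 and 92.8 CPM with corticosterone. The highest and the lowest library were both treated ones. The group means were 83.3 ± 6.06 and 83.5 ± 8.95 CPM (SD, n = 3), and the log2 fold change was 0.0031 (95% interval -0.20 to 0.21; edgeR adjusted p = 0.991). It was -0.013 with upper quartile scaling.

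Gpx4 (chromosome 10, 80047166 to 80056439) encodes the selenoprotein that reduces lipid peroxides in membranes and holds ferroptosis in check. It was at 295, 324 and 342 CPM in controls and at 265, 340 and 251 CPM with corticosterone. Corticosterone replicates 1 and 3 were below all controls and replicate 2 was above control replicates 1 and 2. With all libraries the log2 fold change was -0.17 (SE 0.11, 95% interval -0.43 to 0.093; edgeR adjusted p = 0.506). Without corticosterone replicate 2 the estimate was -0.31 (adjusted p = 0.0087), and without corticosterone replicate 3 it was -0.081 (adjusted p = 0.859).

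The share of counts on 83 ribosomal protein genes moved with Gpx4 from library to library. It was 6.32%, 6.61% and 6.82% in control replicates 1, 2 and 3 and 5.95%, 7.13% and 5.63% in corticosterone replicates 1, 2 and 3, so the same 2 libraries, control replicate 3 and corticosterone replicate 2, were highest for both. The part of this in the result was not tested. A processed pseudogene, Gpx4-ps2 (chromosome 10, 45875291 to 45876086), held 5337 to 7029 counts per library and had estimates of -0.15 on the log2 scale with all libraries and -0.25 when corticosterone replicate 2 was left out. Reads of near-identical copies may be divided between them, so the values of Gpx4 are uncertain to that extent.

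**Figure D3:**
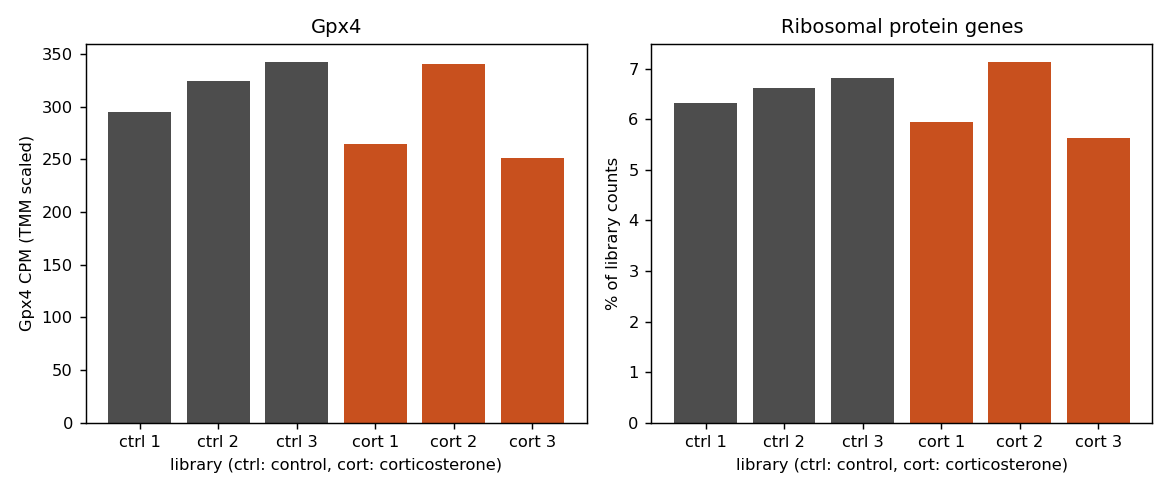
Gpx4 level (left, CPM with TMM scaling) and share of library counts on 83 ribosomal protein genes (right, percent) in each library, control in grey and corticosterone in orange. Control replicate 3 and corticosterone replicate 2 are the highest for both, at 342 and 340 CPM and at 6.82% and 7.13%.

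G6pdx (chromosome X, 74409483 to 74429194) encodes glucose-6-phosphate dehydrogenase, the entry to the pentose phosphate pathway and a main source of the NADPH that both reductases spend. It was at 160.2, 166 and 169 CPM in controls and at 147, 161 and 140.0 CPM with corticosterone. Corticosterone replicate 2 again lay among the controls, above control replicate 1, and the other treated libraries lay below all of them. The log2 fold change was -0.14 (SE 0.063, 95% interval -0.29 to 0.00024; edgeR adjusted p = 0.294), and without corticosterone replicate 2 it was -0.20 (adjusted p = 0.0136). Exons of G6pdx overlap Ikbkg on the opposite strand.

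FPKM is per length, so an order of genes by it depends on the gene lengths that the authors used. On this scale Gpx4 was by far the most abundant member in controls (164 ± 11.6 FPKM, SD, n = 3). G6pdx (47.3 ± 1.096), Gsr (26.8 ± 2.06), Txnrd1 (22.3 ± 1.41), Nfe2l2 (20.6 ± 1.41) and Keap1 (17.2 ± 0.294 FPKM) followed. Srxn1 (15.8 ± 0.934), Gclc (7.93 ± 0.782), Gclm (5.81 ± 0.416) and Nqo1 (5.44 ± 0.744 FPKM) were the lowest. Control libraries of neighbours in this order overlapped between Txnrd1 and Nfe2l2 and between Gclm and Nqo1, and not between the other neighbours, although Keap1 and Srxn1 were nearly level (lowest Keap1 library 16.93, highest Srxn1 library 16.90 FPKM). In treated cells Nqo1 was at 4.09 ± 0.0353 FPKM and Gclm at 6.44 ± 0.518 FPKM.

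Around the members, 140 further genes of the pathway were listed, of which 129 were tested. The lists were chosen with earlier results of these data known, so their shares beside those of all genes do not test the pathway. Of these 5 rose (Chac1, Slc7a11, Sesn2, Slc3a2 and Mafk) and 3 fell (Aldh3a1, Osgin1 and Mgst1), or 6.2% against 2.82% of all tested genes. The ranges of the groups did not overlap in 51 of them (39.5%, against 22.2% of all tested genes), 23 higher and 28 lower. The median log2 fold change was -0.043. Without corticosterone replicate 2, 23 rose and 30 fell, in the fit in which 10.5% of all tested genes were higher and 10% lower.

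**Figure D4:**
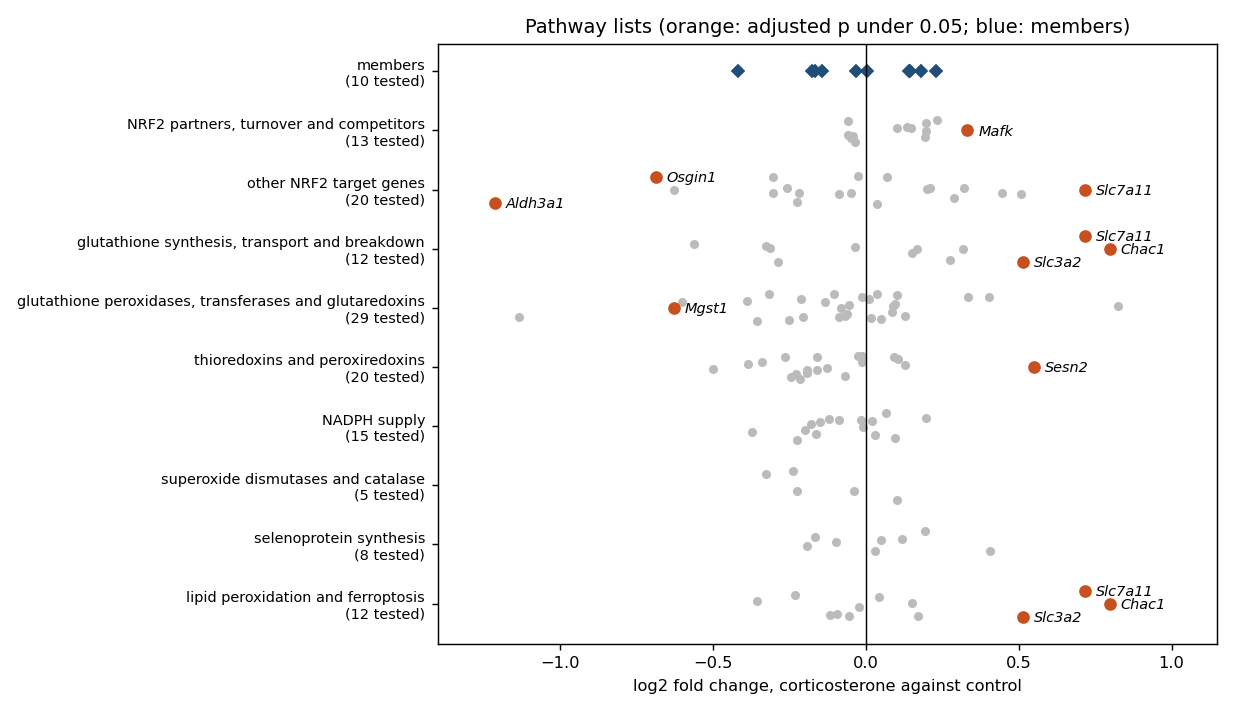
Log2 fold change, corticosterone against control (x axis), of every tested gene in 9 lists of the pathway (grey dots, orange and named where the adjusted p was under 0.05) and of the 10 members (blue). Members lie between -0.42 and 0.23, and the named genes reach -1.21 (Aldh3a1) and 0.80 (Chac1); a gene on several lists appears in each, and vertical position within a list has no meaning.

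Among 13 tested partners, turnover factors and competitors of NRF2, 1 rose, against 1.35% of all tested genes, and 12 did not pass (median 0.14). The gene that rose was Mafk, a small MAF protein that pairs with NRF2, at a log2 fold change of 0.33 (SE 0.067). Mafk went from 49.5, 45.7 and 49.0 CPM in controls to 60.1, 57.3 and 64.1 CPM (edgeR adjusted p = 0.0408), and the call was lost without any 1 library other than corticosterone replicate 2 (adjusted p up to 0.218). Cul3, the scaffold of the ligase that KEAP1 serves, had a log2 fold change of 0.23, the autophagy receptor Sqstm1, which binds KEAP1, one of 0.20 and Mafg one of 0.15. None of these 3 passed in edgeR, and Cul3 passed in DESeq2 (adjusted p = 0.0167). In each, all treated libraries were above all controls, as for 10.6% of all tested genes. Naming genes by low p favours this. Without corticosterone replicate 2, 7 of the list rose and 0 fell, against 10.5% and 10% of all tested genes. Mafk and Sqstm1 overlap genes on the opposite strand, and Mafg overlaps Sirt7 on its own strand.

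Of 20 other tested NRF2 targets, 1 rose, 2 fell and 17 did not pass (median -0.036). Over all tested genes 1.35% were higher and 1.46% lower. Slc7a11, the cystine carrier of the exchanger xCT, rose from 28.4, 28.4 and 31.4 CPM to 49.6, 40.0 and 55.5 CPM (log2 fold change 0.72, SE 0.12; edgeR adjusted p = 0.0188). Osgin1, an oxidative stress-induced growth inhibitor, fell from 38.1, 40.8 and 46.5 CPM to 24.6, 28.4 and 24.9 CPM (log2 fold change -0.69, SE 0.097; adjusted p = 0.0101). Aldh3a1, an aldehyde dehydrogenase, fell from 7.90, 5.81 and 5.42 CPM to 2.10, 3.14 and 2.999 CPM (log2 fold change -1.21, SE 0.21; adjusted p = 0.0213). Hmox1, heme oxygenase-1, did not pass in edgeR at a log2 fold change of 0.32 (adjusted p = 0.0579). It did pass in DESeq2 (adjusted p = 0.0036) and in limma on log2(FPKM + 1) (adjusted p = 0.0399). The targets that passed changed in both directions.

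The call of Osgin1 was lost without control replicate 2 or corticosterone replicate 1 (edgeR adjusted p up to 0.0705). That of Slc7a11 was lost without any control library or without corticosterone replicate 1 (up to 0.119), and that of Aldh3a1 without any library other than corticosterone replicate 2 (up to 0.0901).

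In the list of glutathione synthesis, transport and breakdown, 3 of 12 tested genes rose, against 1.35% of all tested genes, and 9 did not pass (median 0.16). Chac1, which breaks glutathione down inside the cell, rose from 47.4, 56.6 and 56.4 CPM to 91.2, 96.8 and 90.7 CPM (log2 fold change 0.80, SE 0.080; edgeR adjusted p = 0.00276), and was the 1 of these 8 pathway calls that held without each library in turn. Slc3a2, the heavy chain that partners the xCT carrier, rose from 244, 259 and 284 CPM to 355, 410.5 and 356 CPM (log2 fold change 0.51, SE 0.079; adjusted p = 0.0151, up to 0.111 without control replicates 1 or 2 or corticosterone replicate 1). Slc7a11 was the third. Cth, which makes cysteine from cystathionine, did not pass at a log2 fold change of 0.32 (adjusted p = 0.0793). Chac1, Slc7a11, Slc3a2 and Sesn2 are also known targets of ATF4, the factor of the integrated stress response.

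Glutathione peroxidases other than Gpx4, glutathione transferases and glutaredoxins had 29 tested genes, of which 1 fell and 28 did not pass (median -0.061). The share that fell over all tested genes was 1.46%. Mgst1, a microsomal transferase with peroxidase activity, fell from 17.0, 17.2 and 17.8 CPM to 12.2, 10.6 and 10.8 CPM (log2 fold change -0.63, SE 0.088; edgeR adjusted p = 0.00971), a call lost without any 1 control library (up to 0.0805). The transferases Gsta4 (0.40), Gsta1 (0.82) and Mgst3 (-0.36) did not pass. Their groups did not overlap, as for 22.2% of all tested genes, and naming by low p favours this. Gsta1 belongs to a family of close copies, so its value is uncertain.

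Among 20 tested thioredoxins, peroxiredoxins and their helpers, Sesn2, a sestrin induced by stress, rose from 15.9, 18.5 and 17.2 CPM to 24.1, 26.9 and 24.5 CPM (log2 fold change 0.55, SE 0.087; edgeR adjusted p = 0.0162, up to 0.0844 without any library other than corticosterone replicate 2). The other 19 did not pass, and 16 of the 20 estimates were below 0 (median -0.16). The peroxidases Prdx1 (-0.25) and Prdx2 (-0.34) and the mitochondrial reductase Txnrd2 (-0.38) had the lowest p after Sesn2. In each the treated libraries were all below the controls, as for 11.6% of all tested genes, and naming by low p favours this. Without corticosterone replicate 2, 8 of the list fell and 1 rose, against 10% and 10.5% of all tested genes. Exons of Prdx2 and Txnrd2 overlap genes on the opposite strand.

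None of 15 tested genes of NADPH supply passed in edgeR, 6 had an unadjusted p under 0.05, and DESeq2 called 1 and limma 0 (median -0.088). The shares over all tested genes were 2.82% in edgeR, 17% by unadjusted p and 7.4% in DESeq2. Idh1, cytosolic isocitrate dehydrogenase, had a log2 fold change of -0.20, Me2, a malic enzyme, one of 0.20, its relative Me3 one of -0.37 and Rpia, of the pentose phosphate pathway, one of -0.16. Me3 overlaps a gene on the opposite strand. Nnt, the mitochondrial transhydrogenase that makes NADPH from NADH, was singled out after its values were seen, because its symbol stands for 2 identifiers with overlapping coordinates.

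Counts of the first Nnt identifier were 7703, 7852 and 4353 in control replicates 1, 2 and 3 and 6458, 3970 and 6559 in the corticosterone replicates. The second identifier had 3440 counts in control replicate 3, 2341 in corticosterone replicate 2 and 0 in the other libraries. The sum was 121, 120.3 and 119 CPM in controls and 103, 96.7 and 100.4 CPM with corticosterone. All treated libraries were below all controls, as for 11.6% of all tested genes. The first identifier alone did not pass, with a log2 fold change of -0.22 and an SE of 0.26 (edgeR adjusted p = 0.71). With both summed before the fit, a choice made after seeing the data, Nnt fell by 0.27 on the log2 scale (SE 0.050; adjusted p = 0.0296).

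**Figure D5:**
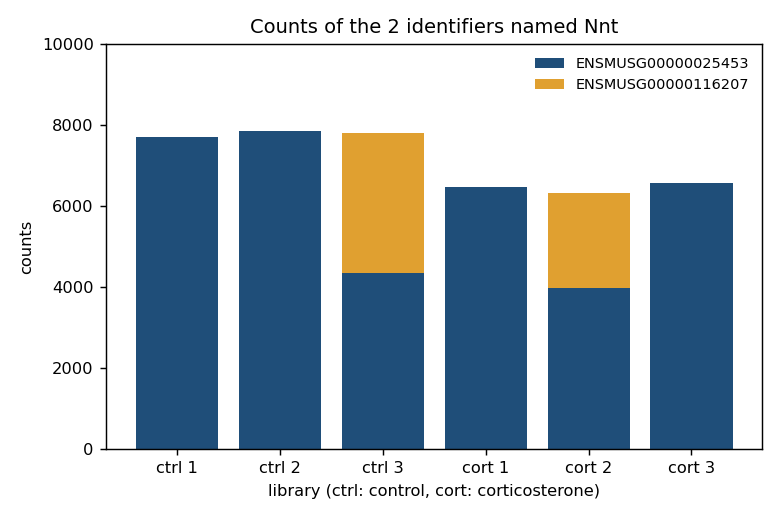
Counts (y axis) of the 2 identifiers with the symbol Nnt in each library, stacked. The second identifier holds counts in control replicate 3 (3440) and corticosterone replicate 2 (2341) and 0 in the others, and the stacked totals are 7703 to 7852 in controls and 6311 to 6559 with corticosterone.

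Of 5 tested genes for superoxide dismutases, catalase and the copper chaperone, 0 passed in edgeR, in DESeq2 or in limma, and in edgeR 2 had an unadjusted p under 0.05 (median -0.23), with log2 fold changes of -0.23 for the chaperone Ccs, -0.24 for Sod1, 0.10 for Sod2 and -0.33 for Sod3. Of 8 genes listed for the supply and insertion of selenocysteine, which GPX4 and TXNRD1 contain, 0 passed with the same 3 tools, and in edgeR 2 had an unadjusted p under 0.05 (median 0.039). For all tested genes the shares were 2.82% passing in edgeR (1.35% higher), 7.4% in DESeq2 and 17% with an unadjusted p under 0.05. Pstk, which phosphorylates the seryl-tRNA of selenocysteine, had a log2 fold change of 0.41, the selenocysteine lyase Scly one of -0.19, Sephs2 one of 0.12 and Sephs1 one of -0.098. Of 12 tested genes of lipid peroxidation and ferroptosis, the 3 that rose were Chac1, Slc3a2 and Slc7a11 again, and 9 did not pass (median 0.010), among them Fdft1 of the sterol pathway (-0.36; edgeR adjusted p = 0.0587). Pstk, Scly, Sephs2 and Fdft1 overlap genes on the opposite strand.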

How the data were processed

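RNA of 4T1 cells was sequenced in 6 libraries, grouped by the treatment field of the labels, with replicate numbers from the titles. The deposited table gives whole-number counts per gene, which the authors did not normalize, per the file headers, and FPKM values deposited by the authors beside them. No aligner or counter is given in the sources used here. The submitters' processing notes name the build GRCh38, but all 28154 identifiers are mouse (ENSMUSG), and coordinates of the members equal those of GENCODE M21 (GRCm38) except the end of Srxn1. Each value column was matched to 1 sample.

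The members, lists and tests were chosen with earlier results of these data known. Counts were scaled by TMM, filtered with filterByExpr (minimum count 10, minimum total 15) and fitted in edgeR 4.0.16 (R 4.3.3, glmQLFit and glmQLFTest, group only), with Benjamini-Hochberg adjustment over 17283 genes. The verbs rose, fell and changed are kept for an adjusted p under 0.05. Where no other tool is named, passed refers to edgeR. SEs and 95% intervals follow from the quasi-likelihood F. The pipeline was tested on simulated data. Genes named were the 10 members, of each list all that passed and then those with the lowest p, up to 4, 3 receptor targets and 4 cell markers. Nnt, Gpx4-ps2, Cd3e and Ly6g were named after their values were seen. A listed marker is not reported here.

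Alternatives were DESeq2 1.42.0, DESeq2 size factors, library totals alone or upper quartile scaling in edgeR, no filter, limma-trend (3.58.1) on log2(FPKM + 1) for genes reaching an FPKM of 1 in 3 or more libraries, a pseudocount of 0.1, limma without filter, the replicate block and each library left out. Chosen after seeing data were limma-voom with library weights and the summed Nnt. Deviations from group means were hardly related between libraries of the same number (Pearson r of 0.011, 0.038 and -0.088 across genes), so libraries were not paired.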

Additional observations from a re-analysis of the deposited data

How the results depend on the processing

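The count of all changed genes, 487, was 1113 with DESeq2, 211 with no filter, 260 with limma on log2(FPKM + 1) without a filter, 4724 with limma-voom weights, and 88 (without control replicate 2) to 3670 (without corticosterone replicate 2) with 1 library left out. The fits with 1 library left out had fewer libraries than the main fit, and their counts lay on both sides of its 487. Members called, 0 in the report, were 2 higher and 4 lower with limma-voom weights, the same 6 genes as without corticosterone replicate 2, and 0 to 2 higher and 0 to 4 lower with 1 library left out. Because the limma-voom weight was lowest for corticosterone replicate 2, that fit and the one without this library are not independent. The other planned settings called 0 members. Other pathway genes called higher, 5 in the report, were 12 with DESeq2, 1 with no filter, 8 with limma on log2(FPKM + 1), 8 with the pseudocount of 0.1, 2 with limma without a filter, 25 with limma-voom weights and 1 to 23 with 1 library left out. Those called lower, 3 in the report, were 11 with DESeq2, 5 with library totals alone, 7 with either limma pseudocount, 38 with limma-voom weights and 0 to 30 with 1 library left out. The cause of these differences was not tested.

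With the replicate number as a block, 237 genes changed and 0 members did, and samples of the same number were not otherwise linked. Of the members, 8 kept their direction under all 16 alternatives. Nfe2l2 was 0.035 with limma-voom weights and -0.072 to 0.025 with 1 library left out, and Gsr was -0.013 with upper quartile scaling and -0.076 to 0.074 with 1 library left out. Each member had at least 443 counts in every library, and the number of libraries, 3 per group, limits the precision.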

Other observations

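Control replicate 3 and corticosterone replicate 2 shared several readings that the treatment labels do not separate. They were the 2 lowest libraries on the second principal component of log2 CPM (-27.1 and -37.1, against 4.76 to 27.4 in the others), the 2 with counts on the second Nnt identifier, and the 2 with the highest share of ribosomal protein genes (6.82% and 7.13%). Among the members they were the 2 highest for Gpx4 (342 and 340 CPM) and the 2 lowest for Gsr (77.1 and 75.0 CPM). Within each group they were also the lowest for Gclc (31.5 CPM in controls and 35.4 CPM with corticosterone) and the highest for G6pdx (169 and 161 CPM). With corticosterone replicate 2 left out, control replicate 3 alone carries this pattern, which then cannot be told apart from treatment. The labels name no batch, and the part of this pattern in the results was not tested.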
